A study of Mus musculus with 10 samples.

Results

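The genes examined here are 32 genes of cholesterol and fatty acid synthesis which are targets or regulators of the sterol regulatory element binding proteins (SREBPs). They were chosen by gene symbol, with a minimum on detection as the only measured value in the rule. Earlier results of these data were known when the list was chosen. All 32 are among the 29564 genes listed in the deposited tables, and 31 had TPM (abundance corrected for transcript length and depth) above 0 in at least 9 of 10 mice. They fall into 8 genes of the mevalonate pathway, 3 that make lanosterol from farnesyl diphosphate, 9 that turn lanosterol into cholesterol, 6 of SREBP control and sterol transport, and 6 of fatty acid synthesis. Left ventricles of wild-type male mice (C57BL6 in the labels, C57BL/6J in the methods of the study) were compared in a design that asked which transcripts differ when diet and pressure overload are combined to mimic HFpEF, a heart failure in which the ejection fraction is preserved. The HFD+mTAC group held 5 mice, TT-588 to TT-592, whose aortic arch was narrowed surgically at 11 weeks of age (mTAC, moderate transverse aortic constriction) and which then ate a high-fat diet (HFD, 60% of kilocalories from fat). The 5 control mice (TT-583 to TT-587) had no operation and a diet with 10% of kilocalories from fat. Induction took 16 weeks. The labels give vehicle as the treatment of both groups, and its regimen (DMSO, PEG-300 and water at 10 mL/kg daily, for 6 to 9 weeks) is stated for HFD+mTAC mice. With no mice of diet alone or operation alone among these libraries, diet and operation cannot be told apart.

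SREBP precursors sit in the endoplasmic reticulum bound to the escort protein Scap. When membrane sterol is low, Scap carries them to the Golgi, where 2 proteases release the part that enters the nucleus and binds sterol regulatory elements. When sterol is plentiful, Insig proteins hold Scap back. Srebf2 encodes the form that mainly drives cholesterol synthesis and uptake, and Srebf1 the form that mainly drives fatty acid synthesis. Heart muscle takes up most of its lipid from the blood and burns fatty acids as its main fuel.

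Total estimated counts were 34.2 to 53.7 M per control mouse and 35.8 to 46.7 M per HFD+mTAC mouse (two-sided exact permutation test, p = 0.452), of which 43.8 to 52.7% were mitochondrially encoded. Protein-coding genes outside the mitochondrial genome took 12.7 to 21.1 M. The 7 cardiomyocyte markers were abundant in every mouse. Their summed TPM was 129000 to 150000 in control and 121000 to 147000 in HFD+mTAC mice (two-sided exact permutation test, p = 0.175). All 7 had a log2 fold change below 0. By edgeR, 2 of the 7 were lower at an unadjusted p under 0.05 (3.72% of all genes tested were), and none passed an adjusted p of 0.05. The 7 adipocyte markers summed to 2.11 to 10.1 TPM in control and 0.918 to 5.71 in HFD+mTAC mice (two-sided exact permutation test, p = 0.325). Of these 7, only 1 was detected in enough mice to be tested by edgeR. Plin1 was above 0 TPM in 1 mouse, Cfd in 3, Retn in 4, Lep in 6, and Adipoq and Cidec in 8. With so many listed zeros, this sum cannot decide whether fat in the samples differed. The 3 brown fat markers summed to 3330 to 5410 TPM in control and 3240 to 5060 in HFD+mTAC mice (two-sided exact permutation test, p = 0.468). Of these, Ucp1 was listed at 0 in every mouse, so the sums come from the other 2 alone. Whether their transcripts come from brown fat or from other cells was not determined. Each of the 2 was tested for a difference. By edgeR, 1 was lower and 1 was higher, the latter at an unadjusted p under 0.05 (4.54% of all genes tested were). Of 11 marker lists, that of Schwann cells had the smallest p, with sums of 4.15 to 13.0 TPM in control and 3.12 to 5.66 in HFD+mTAC mice (p = 0.0397 by two-sided exact permutation, or 0.437 after Benjamini-Hochberg adjustment for 11 lists), and its part in the results was not tested. In bulk tissue, fewer cells of a type and less RNA per cell cannot be told apart.

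Promoters are shown for 3 genes that the results below turn on, each from 250 bases before to 50 bases after a RefSeq transcription start (GRCm38.p6, plus strand): Hmgcs1 at chr13:119690101-119690400, Idi1 at chr13:8885356-8885655 and the first of 2 Scap windows at chr9:110333038-110333337. Capitals mark the sterol regulatory element TCACNCCAC, the CCAAT box (CCAAT, bound by NF-Y) and the GC box (GGGCGG, bound by Sp1), each on either strand.
Hmgcs1: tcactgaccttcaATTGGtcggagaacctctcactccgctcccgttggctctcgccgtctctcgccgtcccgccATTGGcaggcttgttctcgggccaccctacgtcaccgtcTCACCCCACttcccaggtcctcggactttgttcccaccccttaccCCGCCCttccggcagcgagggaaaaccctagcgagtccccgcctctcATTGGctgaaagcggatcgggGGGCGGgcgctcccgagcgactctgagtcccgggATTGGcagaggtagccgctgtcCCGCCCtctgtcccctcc
Idi1: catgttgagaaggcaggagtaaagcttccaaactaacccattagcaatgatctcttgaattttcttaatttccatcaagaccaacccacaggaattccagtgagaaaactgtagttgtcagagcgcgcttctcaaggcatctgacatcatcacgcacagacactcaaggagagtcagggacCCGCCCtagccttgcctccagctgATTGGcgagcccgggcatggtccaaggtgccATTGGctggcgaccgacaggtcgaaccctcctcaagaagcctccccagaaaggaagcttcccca
Scap: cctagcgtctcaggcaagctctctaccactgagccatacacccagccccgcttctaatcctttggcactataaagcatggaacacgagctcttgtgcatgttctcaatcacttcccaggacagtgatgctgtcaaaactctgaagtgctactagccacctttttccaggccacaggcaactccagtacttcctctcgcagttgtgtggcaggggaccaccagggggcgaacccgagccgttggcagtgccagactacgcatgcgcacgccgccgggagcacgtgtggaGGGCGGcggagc
The Hmgcs1 window holds the sterol regulatory element TCACCCCAC, which begins 137 bases before the start, with CCAAT boxes on both sides and GC boxes on its 3′ side. The Idi1 window holds a GC box and a pair of CCAAT boxes, and the Scap window shown a single GC box. A window was found for 26 of the 32 genes, and TCACNCCAC was present in 1 of these 26 (3.85%, exact 95% interval 0.0973 to 19.6) against 388 of 27025 genes in the whole table (1.44%). The looser spelling TCANNCCAC, which includes the first, was found in Acly as well, so in 2 of 26 (7.69%, against 4.78% of all genes). CCAAT was present in 22 of 26 (84.6%, against 41.1% of all genes) and GGGCGG in 21 of 26 (80.8%, against 38.2%). The shares of all genes here are over the 27025 genes with a promoter window, not only those tested for expression. These are matches of letters in a short window, and binding was not measured.

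No member passed an adjusted p of 0.05 in the quasi-likelihood test of edgeR (Benjamini-Hochberg adjusted over all genes tested), as 8 of all 13303 genes did (0.0601%), and the smallest adjusted p of a member was 0.261. At an unadjusted p under 0.05, 4 members were lower in HFD+mTAC mice (Hmgcs1, Idi1, Sqle and Ebp, where 3.72% of all genes tested were lower at this threshold) and 1 was higher (Scap, where 4.54% of all genes were higher). DESeq2's test called 1 member, Hmgcs1 (DESeq2 adjusted p = 0.0382), and 120 genes in all. Control and HFD+mTAC mice did not overlap for Hmgcs1 and Sqle, which were lower in all 5 HFD+mTAC mice (0.887% of all genes were separated in this direction), and for Scap, which was higher in all 5 (1.07% of all genes). Of the 31 members tested, 20 were lower and 11 higher, so that 64.5% were lower against 49.7% of all genes tested. Under the alternative settings, 16 to 21 members were lower. The log2 fold changes (HFD+mTAC minus control) ranged from -1.03 to 0.30 with a median of -0.07, and the median over all genes was 0.00. For 19 of the 31 members, the 95% interval of the log2 fold change lay within 0.5 of 0.

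**Figure D1:**
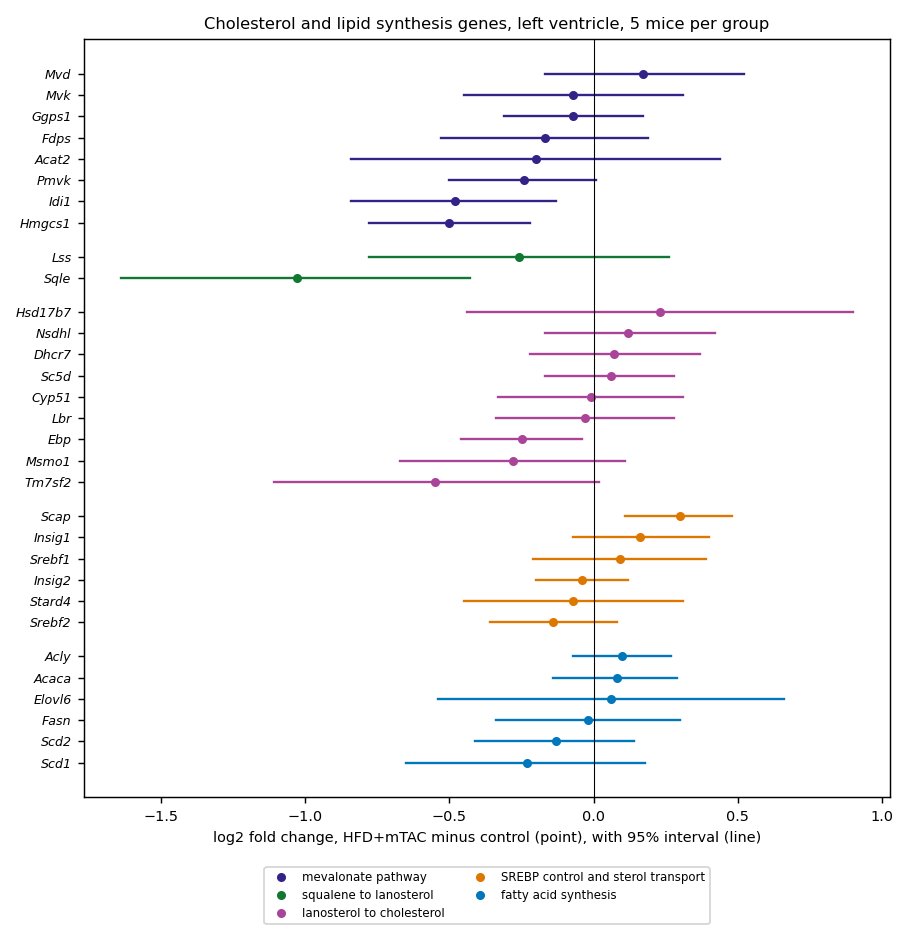
Log2 fold change of each of the 31 genes tested (x axis, HFD+mTAC minus control, points) with its 95% interval (lines), grouped by role and colored by group. The intervals of Hmgcs1, Idi1, Sqle and Ebp lie below 0 and that of Scap lies above 0, before adjustment for the number of genes tested, and the other 26 span 0.

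The mevalonate pathway, which builds isoprenoid units from acetyl-CoA, was lower in 7 of its 8 genes, with a median log2 fold change of -0.19. Hmgcs1 (chromosome 13 of GRCm38, 119690379 to 119708260, plus strand) encodes the cytosolic synthase that makes HMG-CoA. Its normalized counts (CPM, counts scaled by TMM to a common library size) were 57.7, 52.8, 58.4, 47.4 and 56.1 in the control group, against 44.5, 40.9, 26.1, 40.8 and 40.7 in the HFD+mTAC group. Every HFD+mTAC mouse was below every control mouse, and TT-590 was the lowest by a wide gap. The means were 54.5 ± 4.49 and 38.6 ± 7.18 CPM (SD, n = 5), a level 0.709 times that of controls (log2 fold change -0.50, standard error 0.13, edgeR adjusted p = 0.261). In the fits that each left out 1 mouse, its log2 fold change ranged from -0.55 to -0.39.

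Idi1 (chromosome 13, 8885501 to 8892451, plus strand), the isomerase of the isoprenoid units, had 17.0, 11.9, 14.4, 14.5 and 10.5 CPM in control mice, against 10.8, 10.9, 11.4, 8.40 and 7.49 in HFD+mTAC mice. All 5 HFD+mTAC mice were below the control median, but 3 of them lay above the lowest control mouse, TT-587. The log2 fold change was -0.48 with a standard error of 0.16 (edgeR adjusted p = 0.42). Pmvk, the second kinase of the pathway, averaged 16.9 ± 1.07 and 14.3 ± 2.20 CPM (SD, n = 5), with 4 of 5 HFD+mTAC mice below the lowest control mouse (log2 fold change -0.24, edgeR adjusted p = 0.627). Fdps, which makes farnesyl diphosphate, had a log2 fold change of -0.17, and all 5 HFD+mTAC mice were below the control median. Acat2, the acetyl-CoA thiolase of the first step, gave -0.20 with a 95% interval from -0.84 to 0.44 on few counts (40 to 156 per mouse). Mvk, the first kinase, and Ggps1, which makes geranylgeranyl diphosphate for protein prenylation, both gave -0.07, and Mvk turned to 0.24 by limma on log2(TPM + 1). Mvd, the decarboxylase, was the exception in direction at 0.17, with all 5 HFD+mTAC mice above the control median.

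Of the genes between farnesyl diphosphate and lanosterol, Sqle (chromosome 15, 59315077 to 59331192, plus strand) had the lowest log2 fold change of the 31 members tested. Squalene epoxidase, its product, adds the first oxygen and is a rate-setting step of the pathway. Control mice had 2.11, 1.94, 1.71, 2.54 and 1.10 CPM and HFD+mTAC mice 0.961, 1.03, 0.769, 1.09 and 0.737. The groups did not overlap, but the highest HFD+mTAC mouse (TT-591, 1.09) and the lowest control mouse (TT-587, 1.10) almost met. Sqle was scarce, with 10 to 44 counts per mouse, and its log2 fold change was -1.03 with a 95% interval from -1.64 to -0.43 (edgeR adjusted p = 0.281). By limma on log2(TPM + 1), where the pseudocount exceeds its level, the difference was -0.20. Lss, which closes the ring to form lanosterol, averaged 5.24 ± 1.61 and 4.36 ± 0.886 CPM (SD, n = 5), with a log2 fold change of -0.26 and overlap between the groups. With lengths as an offset, its log2 fold change was -0.86 (edgeR adjusted p = 0.806).

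Fdft1, squalene synthase, was the 1 member not tested. It was listed at 767 estimated counts in control mouse TT-585, at 934 in HFD+mTAC mouse TT-588, and at exactly 0 in the other 8 mice. No comparison of it was made. Among 6533 protein-coding genes with at least 500 counts in 1 or more mice, 48 (0.735%, Fdft1 included) were listed at 0 in another mouse, and 11 of these in 5 or more mice. A listed 0 here can be a failed assignment of reads, and the reason was not tested.

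The 9 genes that turn lanosterol into cholesterol showed no common direction, with 5 lower, 4 higher and a median log2 fold change of -0.01. Ebp (chromosome X, 8185329 to 8193512, minus strand) encodes the sterol isomerase that moves a ring double bond. It had 23.3, 20.8, 20.4, 21.3 and 25.4 CPM in control mice, against 19.3, 18.0, 20.5, 17.4 and 18.4 in HFD+mTAC mice. Only TT-590 reached into the control range (log2 fold change -0.25, standard error 0.10, edgeR adjusted p = 0.503). The direction for Ebp turned with the scale, to 0.33 by limma on log2(TPM + 1), a scale that divides by an effective length, and the deposited effective length of Ebp ranged from 783 to 3914 bases between mice.

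Tm7sf2, a sterol reductase, averaged 3.0 ± 0.712 and 2.04 ± 0.610 CPM (SD, n = 5), with a log2 fold change of -0.55 on few counts (18 to 82 per mouse, edgeR adjusted p = 0.62). Its length-corrected log2 fold change was -1.50 in the fit with transcript lengths as an offset. Msmo1, which removes methyl groups at carbon 4, gave -0.28, and all 5 HFD+mTAC mice were below the control median while none was below the lowest control mouse. Lbr, the nuclear envelope protein with sterol reductase activity, gave -0.03 and Cyp51, the lanosterol demethylase, -0.01. Nsdhl, which works with Msmo1, gave 0.12, Dhcr7, which completes cholesterol, 0.07, and Sc5d, the sterol desaturase, 0.06. Hsd17b7, the ketoreductase of the same demethylation, varied most in this group, from 10.9 to 28.5 CPM in control and from 13.3 to 37.5 in HFD+mTAC mice, and its log2 fold change of 0.23 had a 95% interval from -0.44 to 0.90. Over all 19 cholesterol synthesis enzymes tested, 14 were lower and 5 higher, with a median of -0.17.

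**Figure D2:**
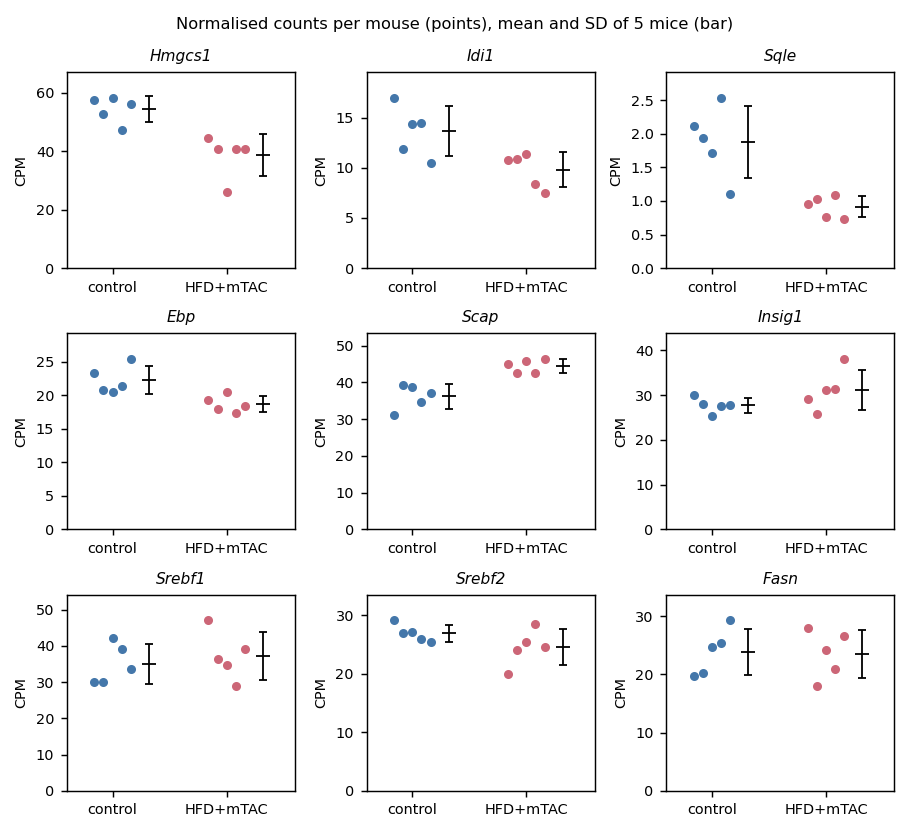
Normalized counts (y axis, CPM, from 0) of 9 genes in each control (blue) and HFD+mTAC (red) mouse, with mean and SD of 5 mice in black. Points of the groups are separate for Hmgcs1, Sqle and Scap and mixed for Srebf1, Srebf2, Insig1 and Fasn.

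Among the regulators, the escort protein gene Scap (chromosome 9, 110333288 to 110384950, plus strand) was higher in HFD+mTAC mice by unadjusted p. Control mice had 31, 39.2, 38.8, 34.7 and 37.2 CPM and HFD+mTAC mice 45.0, 42.6, 45.8, 42.5 and 46.4. The lowest HFD+mTAC mouse was above the highest control mouse, and the HFD+mTAC mice lay close together. The means were 36.2 ± 3.42 and 44.5 ± 1.82 CPM (SD, n = 5), a level 1.23 times that of controls (log2 fold change 0.30, standard error 0.08, edgeR adjusted p = 0.307). On the deposited TPM scale, none of the 3 separated members stayed separated. That scale divides by a length estimated in each mouse and, unlike the CPM here, is not scaled over the genes tested only. For Scap, control TPM reached 1.39 (TT-584) and HFD+mTAC TPM went down to 0.873 (TT-589). For Hmgcs1, control TPM went down to 0.617 (TT-586) and HFD+mTAC TPM reached 0.724 (TT-592). With TPM rescaled over the genes tested, Scap averaged 6.79 ± 0.553 in control and 8.38 ± 1.03 in HFD+mTAC mice (SD, n = 5). Hmgcs1 averaged 5.97 ± 1.05 and 4.06 ± 0.96 on that scale. Separation after rescaling was not tested.

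Srebf2 had 29.2, 27.0, 27.2, 25.9 and 25.5 CPM in control mice, against 20.0, 24.1, 25.5, 28.5 and 24.6 in HFD+mTAC mice. The HFD+mTAC mice spread wider than the control mice, 4 of 5 lay below the control median, and TT-588 was lowest (log2 fold change -0.14, 95% interval -0.36 to 0.08). Srebf1 had 30.1, 30.0, 42.3, 39.1 and 33.7 CPM in control mice, against 47.1, 36.3, 34.8, 28.9 and 39.2 in HFD+mTAC mice. The highest and the lowest mouse were both HFD+mTAC mice (log2 fold change 0.09, 95% interval -0.21 to 0.39). Insig1, which retains Scap and is itself an SREBP target, had 30.0, 28.1, 25.3, 27.6 and 27.7 CPM in control mice, against 29.1, 25.8, 31.1, 31.3 and 38.1 in HFD+mTAC mice. TT-592 stood highest for Insig1, and 3 of 5 HFD+mTAC mice were above every control mouse (log2 fold change 0.16, 95% interval -0.07 to 0.40). Insig2, the second retention gene, gave -0.04 with the narrow interval -0.20 to 0.12, and Stard4, a cytosolic carrier of cholesterol, gave -0.07.

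The 6 genes of fatty acid synthesis were divided, with 3 lower and 3 higher, and none had an unadjusted p under 0.05 in edgeR's test on counts. Fasn, the fatty acid synthase, had 19.7, 20.3, 24.6, 25.3 and 29.3 CPM in control mice, against 27.9, 18.0, 24.1, 20.9 and 26.6 in HFD+mTAC mice. The groups covered nearly the same range, with a log2 fold change of -0.02 (95% interval -0.34 to 0.30), and by limma on log2(TPM + 1) it turned to 0.18. Acly, which supplies cytosolic acetyl-CoA from citrate, had a log2 fold change of 0.10 with 3 of 5 HFD+mTAC mice above every control mouse. Its log2 fold change was larger where lengths entered, at 0.34 by limma on log2(TPM + 1) and 0.32 with lengths as an offset, both with an unadjusted p under 0.05 (adjusted p = 0.646 by limma and 0.635 by edgeR). Acaca, the acetyl-CoA carboxylase, gave 0.08. The stearoyl-CoA desaturases Scd1 and Scd2, close paralogs that may share reads, gave -0.23 and -0.13 with intervals that span 0. Elovl6, which lengthens palmitate, was scarce (15 to 58 counts per mouse) and gave 0.06 with a 95% interval from -0.54 to 0.66.

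Seen by mouse, the cholesterol enzymes differed unevenly among HFD+mTAC mice. HFD+mTAC mouse TT-592 was the lowest of the 10 mice in 9 of 31 members, including 6 of the 19 enzymes. It was also the highest in 3 members, Insig1, Scap and the enzyme Cyp51. Control mice TT-583 and TT-585 were each the highest of 10 in 6 members, and HFD+mTAC mouse TT-588 in 5. Among the 19 enzymes, TT-585 and TT-588 were each highest in 4 and TT-583 in 3. Control mouse TT-587 was lowest in 5 members and HFD+mTAC mouse TT-590 in 4, with 3 enzymes each. The median deviation of the 19 enzymes from the control mean was -0.26 (log2) in TT-592 and -0.18 in TT-590, and -0.06 to -0.07 in the other 3 HFD+mTAC mice. In the control mice, it ran from -0.05 to 0.09.

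**Figure D3:**
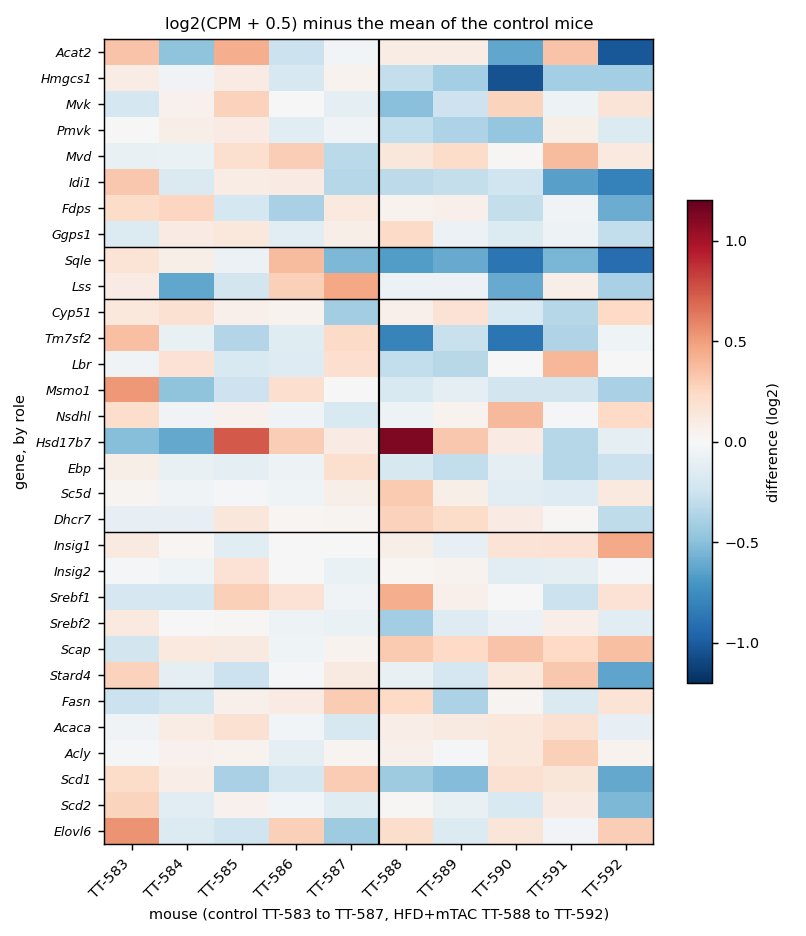
Difference of log2(CPM + 0.5) from the control mean for 31 genes (rows, by role, with lines between roles) in 10 mice (columns), red above and blue below the control mean. The rows of Hmgcs1 and Sqle are blue in all 5 HFD+mTAC mice and that of Scap is red, while the deepest blue values come from TT-588, TT-590 and TT-592.

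Per length, on the TPM scale, rescaled over the genes tested, the most abundant members over all 10 mice were Fasn (26.3 TPM), Insig2 (25.5) and Srebf1 (22.7), and the scarcest were Lss (0.905), Sqle (0.288) and Elovl6 (0.157). This order rests on the deposited effective lengths, which varied with the gene. The mean effective length was above the longest annotated transcript for 23 of the 32 genes (71.9%), as it was for 47.8% of all genes tested that could be matched. The longest transcripts are those of GENCODE M21, a different release from the one the study names for its quantification. For Hmgcs1, the effective length averaged 9822 bases against 3464 bases in the longest transcript, and for Srebf2 12709 against 5077. For Fasn, it averaged 956 bases against 10050, which raises its TPM relative to its 23.7 CPM. Between mice, the length of Lss ran from 1886 to 17111 bases, and 10 of 32 members (31.2%, against 27.0% of all genes tested) had lengths over 2 times apart. Mice TT-583, TT-584 and TT-592 had the shortest lengths over all genes and were left out in 1 alternative fit. In that fit, Hmgcs1 gave -0.51, Sqle -0.89 and Scap 0.25. The members with an unadjusted p under 0.05 were these 3, and the share of all genes was not taken for this fit.

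**Figure D4:**
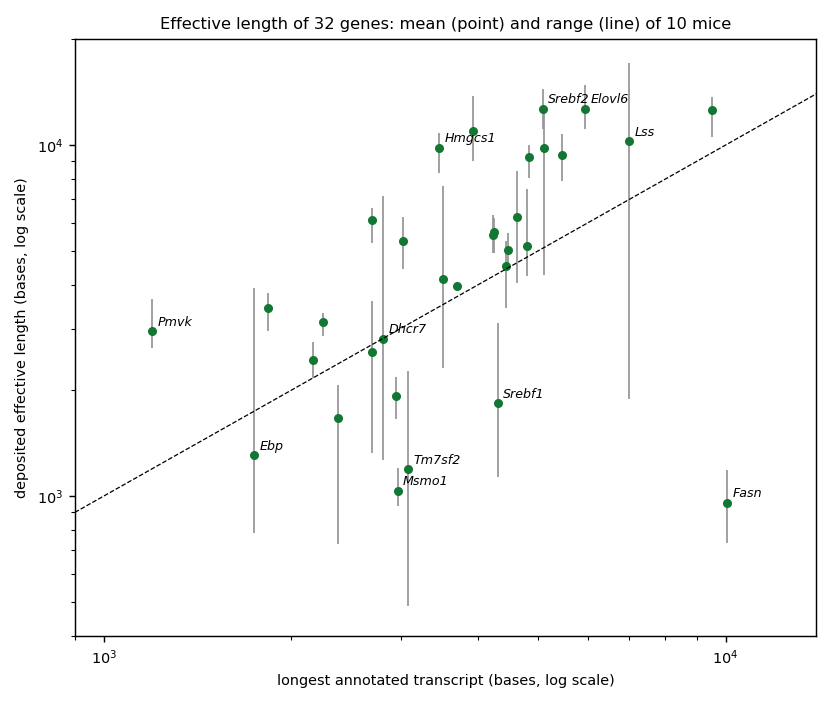
Deposited effective length (y axis, bases, log scale) against the longest annotated transcript (x axis, bases, log scale) for the 32 genes, as the mean (points) and range (lines) of 10 mice, with the dashed line where both are equal. Hmgcs1 and Srebf2 lie above the line and Fasn far below it, and the line of Lss runs from 1886 to 17111 bases.

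Annotation adds a limit for 9 of the 32 genes, which overlap another protein-coding gene, 2 of them (Fdps and Tm7sf2) on the same strand. On the same strand, Fdps shares 7512 bases with Gm43738 and Tm7sf2 532 bases with Vps51. On the opposite strand, Acaca shares 19126 bases with Gm11437 and Mvd 9822 bases with Gm20388. The others on the opposite strand are shorter, with Fdft1 sharing 774 bases with Ctsb and Lbr 440 bases with Dnah14. Ggps1 shares 257 bases with Arid4b, Cyp51 166 bases with Akap9, and Srebf1 109 bases with Rai1. Whether reads were divided between these genes was not tested.

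Of 50 other genes of the pathway, listed by function, 47 were tested, and none passed an adjusted p of 0.05. By edgeR's unadjusted p under 0.05, 6 of the 47 were higher (4.54% of all genes tested were) and 1 was lower (3.72% of all genes). In direction, 25 of 47 were higher, against 6694 of 13303 of all genes, and the median log2 fold change was 0.06. Among 8 genes of SREBP processing and turnover, 4 were higher and 4 lower. Mbtps1, the site-1 protease that makes the first cut in SREBP, had 61.5, 62.1, 63.2, 59.1 and 65.0 CPM in control mice, against 74.6, 73.2, 70.2, 74.8 and 70.9 in HFD+mTAC mice. Like Scap, it was higher in every HFD+mTAC mouse than in any control mouse, the only 1 of the 47 so separated in either direction (1.07% of all genes tested were separated in this direction; log2 fold change 0.23, standard error 0.06, edgeR adjusted p = 0.296). Fbxw7, a ubiquitin ligase subunit that turns over nuclear SREBP, gave -0.26.

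Other SREBP-responsive genes were lower in 9 of 14. Me1, the malic enzyme that supplies NADPH for lipid synthesis, gave 0.38 (edgeR adjusted p = 0.401), and Pcyt2, of phosphatidylethanolamine synthesis, -0.25. Sterol-responsive LXR receptors and sterol efflux genes were higher in 5 of 6, as 6694 of 13303 of all genes were. By edgeR, 1 of the 6 was higher at an unadjusted p under 0.05 (4.54% of all genes tested were). Mylip, a ligase that degrades lipoprotein receptors, gave 0.47 (edgeR adjusted p = 0.358), and Abca1, the cholesterol exporter, 0.16 with a 95% interval from -0.10 to 0.42.

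Genes of sterol uptake, storage and transport were higher in 6 of 9. Lipa, the lysosomal lipase that frees cholesterol from its esters, gave 0.32 (edgeR adjusted p = 0.524), and Npc1, which exports cholesterol from lysosomes, 0.57 with a 95% interval from -0.11 to 1.24. The oxysterol and prenyl branch was even, with 5 of 10 higher. Fnta, a subunit of protein farnesyltransferase named after its values were seen, gave 0.22 with a 95% interval from 0.01 to 0.42 (edgeR adjusted p = 0.596). Dhdds, which starts dolichol synthesis from farnesyl diphosphate, gave 0.31 (edgeR adjusted p = 0.261), and Pdss1, which makes the side chain of ubiquinone, gave -0.31 (edgeR adjusted p = 0.407).

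**Figure D5:**
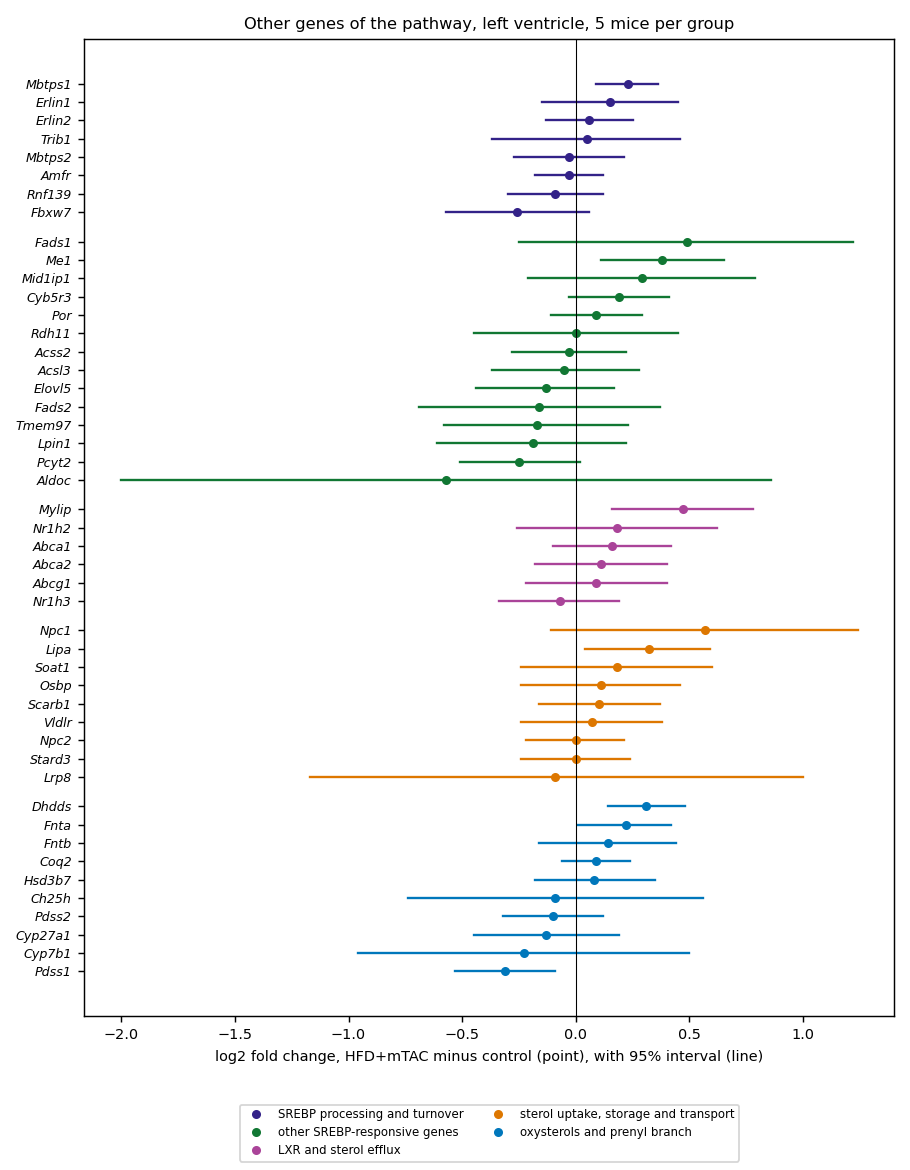
Log2 fold change (x axis, HFD+mTAC minus control, points) with 95% interval (lines) for 47 other genes of the pathway, colored by list. Mbtps1, Me1, Mylip, Lipa, Dhdds and Fnta lie above 0 with intervals that do not include it, and that of Pdss1 lies below 0.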

How the data were processed

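Left ventricular polyA RNA of 10 mice was sequenced, and each library is 1 mouse. By the methods of the study, fastp trimmed the reads and salmon assigned them to mouse transcripts (GENCODE, build GRCm38), whereas the labels name hg38. The authors deposited estimated counts per gene summed by tximport (20.07% of values are not whole), TPM values corrected for length, and other values, the average effective lengths in bases. The labels give salmon 1.6.0 in the submitters' processing notes.

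Of 29564 symbols, 27812 matched GENCODE M21 directly and 891 through older symbols. Rounded counts went into edgeR 4.0.16 under R 4.3.3 (TMM, quasi-likelihood test, Benjamini-Hochberg over 13303 genes that were protein-coding, not mitochondrially encoded and had at least 1 count in 9 of 10 mice), with no covariate. The deposited TPM values were used for levels and alternatives. Single values were compared by exact permutation over 252 arrangements, whose smallest p is 0.00794. Promoters come from RefSeq (GRCm38.p6), and the windows were searched on both strands. No pair of libraries within a group was a repeat (chi-square per degree of freedom at least 12.9), and pairs across groups were not checked. The scripts were tested on simulated data. Depth limits members under 50 counts most, and intervals on shares cover counting error only.

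The members and lists were chosen with earlier results of these data known. Every member is named, and of each other list the 2 genes with the smallest unadjusted p, and 9 members have the value of every mouse. Genes named for listed zeros, overlaps or lengths were chosen after their values were seen. Alternatives were other normalizations, DESeq2 1.42.0, limma 3.58.1, other filters, all biotypes, lengths as an offset, the robust fit and the omission of each mouse. The omission of 3 mice was chosen after seeing the data.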

Additional observations from a re-analysis of the deposited data

Results flagged for a closer look

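In each group of 5 mice, the highest and lowest value of each of 31 members was compared with the others by Dixon's gap over range (62 groups checked, critical value 0.71). Chance alone flags about 1 in 20 groups, and 3 were found. Hmgcs1 in HFD+mTAC mouse TT-590 had 26.1 CPM, below the 40.7 to 44.5 CPM of the other 4, and without this mouse its log2 fold change was -0.39. Cyp51 in control mouse TT-587 had 13.4 CPM, below the 18.7 to 20.6 CPM of the other 4. Insig2 in control mouse TT-585 had 63.0 CPM, above the 53.0 to 55.7 CPM of the other 4.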

How the results depend on the processing

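Over 21 alternative settings, the log2 fold changes of 18 of the 31 members kept their direction throughout, among them Hmgcs1, Idi1, Sqle and Scap, and 600 of 651 values kept direction and side of the threshold. DESeq2's test called 1 member (Hmgcs1, -0.50, DESeq2 adjusted p = 0.0382, range of adjusted p over its alternatives 0.0382 to 0.852) and 120 genes in all. Over all genes, 1 was called by limma with either pseudocount, 1 with transcript lengths as an offset, and 2 without the 3 mice of the shortest average transcripts (TT-583, TT-584 and TT-592), against 8 as reported. Leaving out 1 mouse gave 1 to 9. An unadjusted p under 0.05 was found for 5 members as reported, for 3 without the 3 mice, and for 4 to 6 in the fits that left out 1 mouse. It was found for 7 with DESeq2's test, with limma at either pseudocount and with lengths as an offset. The share of all genes at this threshold was taken for the reported fit only, so the other counts have no background beside them. The groups did not overlap for 4 members in CPM scaled by DESeq2 size factors. On the deposited TPM scale, not rescaled over the genes tested, 0 members had groups that did not overlap. The share of all genes so separated was taken for the reported CPM only. The number of members lower ranged from 16 to 21 and their median log2 fold change from -0.11 to -0.03. No paired analysis was possible because the groups share no numbers in the labels.

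Directions that turned were these. By limma on log2(TPM + 1), Mvk was 0.24, Ebp 0.33, Sc5d -0.07, Insig2 0.14, Stard4 0.09 and Fasn 0.18. With a pseudocount of 0.1 they were 0.26, 0.36, -0.09, 0.15, 0.10 and 0.19, and Dhcr7 was -0.00383. With lengths as an offset they were 0.34, 0.20, -0.11, 0.19, 0.18 and 0.13. Without the 3 mice, Fdps was 0.10, Cyp51 0.03, Lbr 0.00411, Hsd17b7 -0.00444, Srebf1 -0.07 and Stard4 0.10. In fits that left out 1 mouse, Mvk ranged from -0.17 to 0.03, Cyp51 from -0.10 to 0.07, Lbr from -0.16 to 0.03, Hsd17b7 from -0.08 to 0.47, Sc5d from -0.02 to 0.10, Insig2 from -0.07 to 0.01, Srebf1 from -0.01 to 0.17, Stard4 from -0.19 to 0.05, Fasn from -0.09 to 0.06 and Elovl6 from -0.05 to 0.26. The 95% intervals of these genes span 0, except that of Ebp. Members with under 50 counts in some mice (Sqle, Elovl6, Tm7sf2, Lss, Acat2) are limited most by depth.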
